A study of Mus musculus with 8 samples.

Results

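A set of 10 genes, of the 17097 with a named probe set, stood far higher on both CPEB4 RIP arrays of mouse striatum than on every other array of the series. They are Fam76b, Ivns1abp, Msl2, Mettl6, Siva1, Ugcg, Acsl3, Armc10, Dlc1 and Cldnd1. They were chosen for this pattern on their main probe set, the one with the highest average among a gene's probe sets that carry 1 symbol. Their levels with CPEB4 against the other fractions are therefore given as a description, with no test.

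RNA immunoprecipitation (RIP) pulls down a protein with its antibody and measures the RNA crosslinked to it. The groups were CPEB4 RIP, CPEB1 RIP, RIP with rabbit IgG (a control for nonspecific pulldown) and input (an aliquot of the lysate kept back), each from a striatal pool of HD mice and a pool of WT mice. All mice were male and 7 to 8 months old, the tissue was crosslinked with formaldehyde, and the RNA was amplified over 27 cycles, so all groups share these steps. Each group has 1 array, and the 2 genotype pools are the only repeat of a fraction. The labels do not say what HD stands for, which allele it carries, or whether the 4 mice they mention were split between the pools.

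CPEB proteins bind cytoplasmic polyadenylation elements, short U-rich motifs in the untranslated region after the stop codon of an mRNA, and through them change poly(A) tail length and translation. CPEB1 is the founding member of the family, and CPEB4 belongs to a more divergent branch of it. Both are present in neurons, where such mRNAs can be translated at synapses. In striatum most neurons are medium spiny neurons.

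Values are log2 probe set summaries from RMA, which corrects, normalizes and combines the probes of an Affymetrix array, and 1 unit is a 2-fold change. The median of all probe set means over the 8 arrays was 4.23, and levels below it were taken as low. Array medians lay between 4.03 and 4.28. The SD over genes was 1.68 in HD and 1.79 in WT on the CPEB4 arrays, against 1.28 to 1.68 on the other 6 arrays, and the part of this spread in the results was not tested. On both input arrays 9 of the 10 medium spiny neuron markers with a probe set exceeded 4.23. So did 7 of 7 oligodendrocyte, 7 of 8 astrocyte, 5 of 7 microglia, 4 of 6 endothelial and 2 of 4 cortical excitatory neuron markers. The same held for 4 of 5 choroid plexus and ependyma and 2 of 2 blood markers. For scale, 11345 of all 17097 genes had a mean over the 8 arrays above 4.23. These counts therefore do not single out medium spiny neurons.

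Among the genes for nuclear proteins and chromatin regulators, Fam76b differed most between CPEB4 and the rest. Its human protein is found in nuclear speckles. Fam76b measured 8.23 in HD and 8.16 in WT with CPEB4, against 2.95 and 2.69 with CPEB1, 3.31 and 3.07 with IgG, and 3.05 and 2.86 in input. The 6 arrays without CPEB4 antibody were all below 4.23, at 2.99 ± 0.21 (SD, n = 6), and the CPEB4 arrays were at 8.19 ± 0.05 (SD, n = 2). CPEB4 exceeded IgG by 4.92 in HD and 5.09 in WT, on average 32.0-fold, the largest of the 10 genes on the main probe sets.

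Ivns1abp encodes a Kelch-repeat protein first described as a binding partner of an influenza virus protein. Its levels with CPEB4 were 7.90 in HD and 9.17 in WT, against 3.70 and 3.67 with CPEB1, 3.66 and 3.63 with IgG, and 3.92 and 4.17 in input. All 6 arrays outside CPEB4 were again below 4.23. The HD and WT pools differed more with CPEB4 (SD 0.90, n = 2) than the 6 other arrays did among themselves (SD 0.21, n = 6). CPEB4 exceeded IgG by 4.24 in HD and 5.54 in WT.

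Msl2 encodes a ubiquitin ligase that is a subunit of the MSL histone acetyltransferase complex. It reached 8.85 in HD and 9.50 in WT with CPEB4, against 4.74 and 5.69 with CPEB1, 4.98 and 5.97 with IgG, and 5.22 and 6.13 in input. Unlike Fam76b and Ivns1abp, Msl2 was above 4.23 on every array. On this main probe set it was also lower in HD than in WT in each of the 4 fractions, as Ugcg was on its own.

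Mettl6 encodes a methyltransferase that modifies cytosine in serine tRNAs. Its levels were 9.34 in HD and 9.37 in WT with CPEB4, against 5.38 and 5.15 with CPEB1, 5.26 and 5.01 with IgG, and 5.23 and 5.37 in input. The pools were within 0.26 of each other in all 4 fractions, and the other 6 arrays averaged 5.23 ± 0.14 (SD, n = 6). Mettl6 was the most even of the 10 genes by this SD. The CPEB4 mean exceeded the IgG mean by 4.22, or 18.6-fold.

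Siva1 encodes an apoptosis-inducing protein that binds the cytoplasmic tail of the receptor CD27. It was at 10.49 in HD and 10.01 in WT with CPEB4, against 5.65 and 6.42 with CPEB1, 6.40 and 5.69 with IgG, and 6.35 and 5.54 in input. It also lay above 4.23 on all arrays. The main probe set of Siva1 is of a type (suffix x) that Affymetrix gives to sets with probes that can match other transcripts, so its level may not be that of Siva1 alone.

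Both lipid enzymes of the set averaged below 4.23 outside CPEB4. Ugcg makes glucosylceramide, the precursor of most glycosphingolipids. Ugcg measured 7.37 in HD and 8.24 in WT with CPEB4, against 3.54 and 4.10 with CPEB1, 3.83 and 4.11 with IgG, and 4.02 and 4.36 in input. Acsl3 encodes an acyl-CoA synthetase that activates long-chain fatty acids and sits on the endoplasmic reticulum and lipid droplets. It was at 6.91 in HD and 6.72 in WT with CPEB4, against 3.19 and 3.22 with CPEB1, 2.76 and 3.25 with IgG, and 4.10 and 3.80 in input. For Acsl3 input was the fraction nearest to CPEB4: CPEB4 exceeded input by 2.86 on average and IgG by 3.81.

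The last 3 genes encode proteins of mitochondria, the cytoskeleton and membranes. Armc10, an armadillo-repeat protein of the mitochondrial outer membrane, was at 8.15 in HD and 7.37 in WT with CPEB4, against 4.08 and 4.18 with CPEB1, 3.82 and 3.43 with IgG, and 3.49 and 3.88 in input. Its 6 other arrays were below 4.23. Dlc1, a GTPase-activating protein, measured 8.87 in HD and 8.57 in WT with CPEB4, against 4.49 and 5.70 with CPEB1, 4.91 and 4.23 with IgG, and 4.44 and 4.60 in input. Dlc1 was highest outside CPEB4 on the CPEB1 array of WT.

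Cldnd1 encodes a membrane protein with a claudin domain. It was at 9.18 in HD and 9.56 in WT with CPEB4, against 5.03 and 4.99 with CPEB1, 5.17 and 6.65 with IgG, and 6.09 and 6.06 in input. The IgG array of WT stood above its other controls. This made the CPEB4 excess over IgG 4.02 in HD and 2.91 in WT, and its mean of 3.46 the lowest of the 10 genes.

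**Figure D1:**
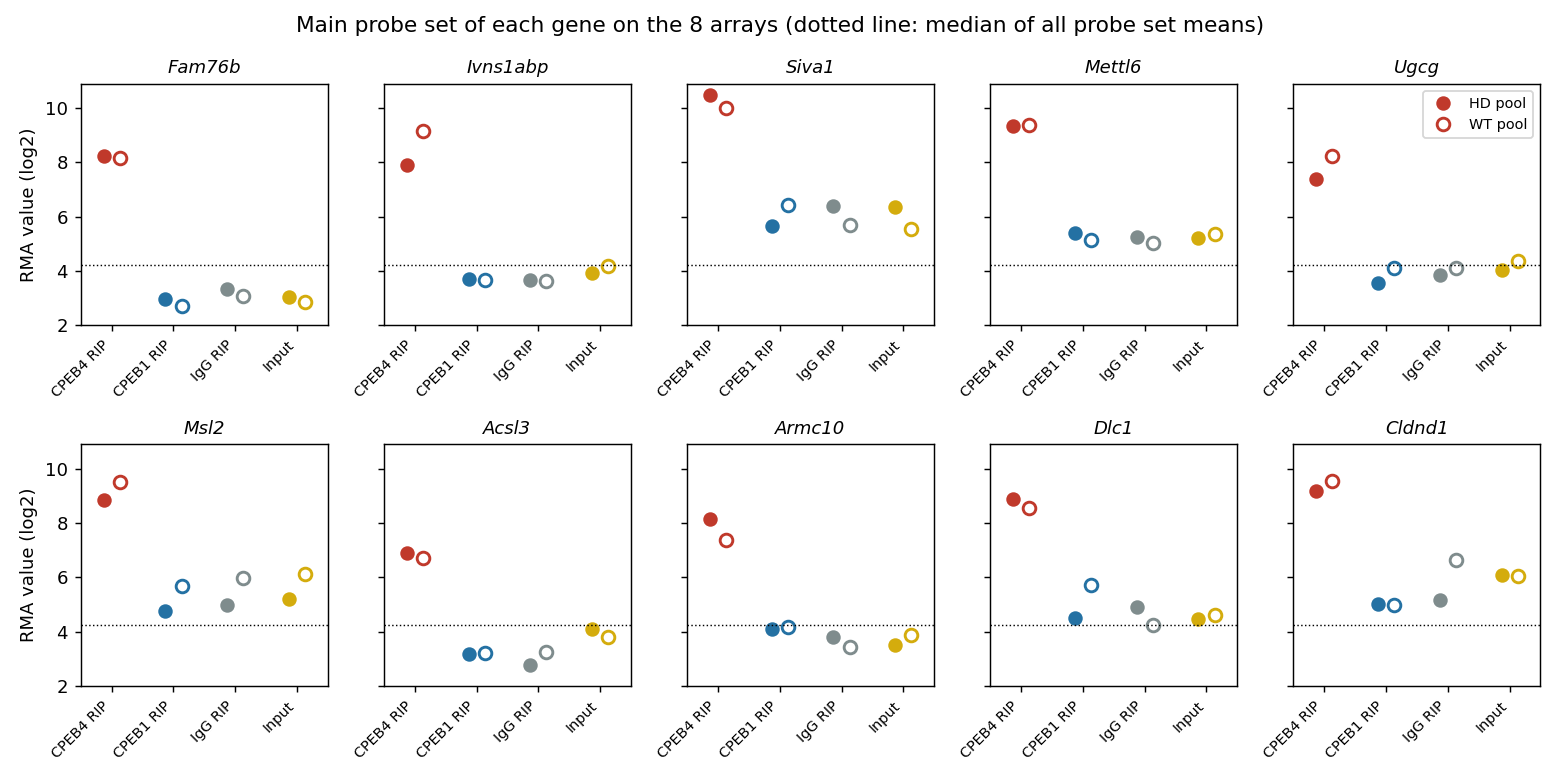
RMA values (log2, y axis) of the main probe set of each of the 10 genes in CPEB4 RIP, CPEB1 RIP, IgG RIP and input (x axis), with 1 array per point, filled for the HD pool and open for the WT pool. The CPEB4 points lie between 6.72 and 10.49, above all other points of the same gene, and the dotted line is at 4.23.

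Striatum was taken whole, so more RNA per cell and more cells of a type cannot be told apart in these levels. Of the 10 genes, 4 were below 4.23 on all 6 arrays outside CPEB4, namely Fam76b, Ivns1abp, Acsl3 and Armc10. For them the size of a fold rests on the array background. All 10 genes passed the filter on low values, a mean over the 8 arrays above 4.23, but 5 of them, these 4 and Ugcg, averaged below 4.23 without the CPEB4 arrays and passed through those arrays.

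The separation was summarised as the CPEB4 margin, the lower of the 2 CPEB4 arrays minus the highest of the other 6 arrays. The margin was 4.84 for Fam76b, 3.96 for Mettl6, 3.73 for Ivns1abp and 3.59 for Siva1. It was 3.19 for Armc10, 3.01 for Ugcg and 2.87 for Dlc1. The smallest margins were those of Msl2 at 2.71, Acsl3 at 2.62 and Cldnd1 at 2.53. All 10 genes thus had a margin of at least 2, as did 77 of 17097 genes, or 0.45%, a share given only for scale because the margin restates how the genes were chosen. The median margin was 3.10 over the 10 genes and -0.79 over all genes.

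The set is not the complete top of the ranking by margin. It holds 5 of the top 10 genes and 8 of the top 20, and 20 other genes rank ahead of Cldnd1, which is in place 30. Cldnd1 stands between Armt1 at 2.54 and Tm7sf3 at 2.52, and Acsl3, in place 24, between Rhou at 2.64 and Eif1ax at 2.58. The same margin computed for another fraction reached 2 in 2 genes for CPEB1, 1 gene for IgG and 3 genes for input.

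**Figure D2:**
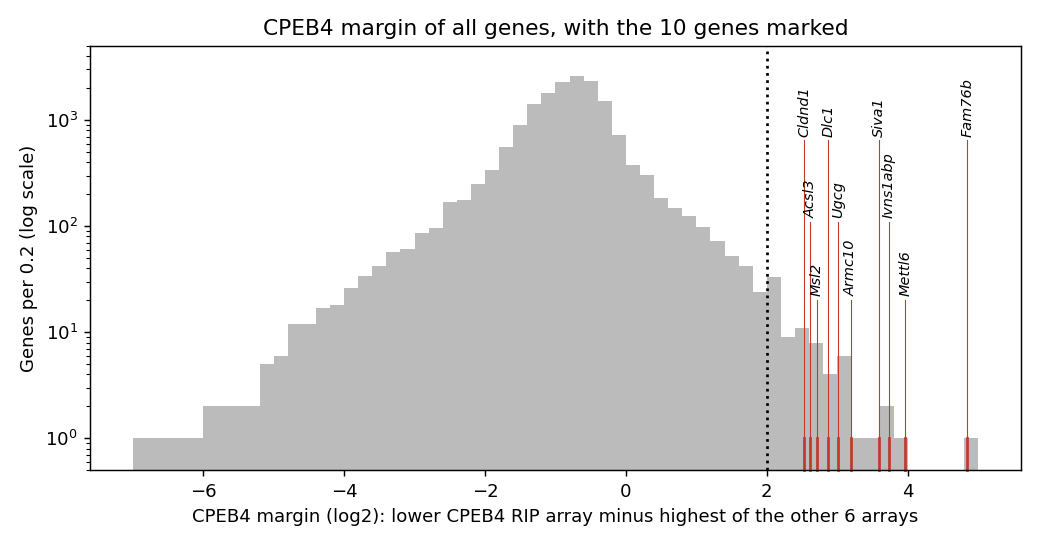
Number of genes (y axis, log scale) by CPEB4 margin (x axis, log2, bins of 0.2) over all 17097 genes, with the 10 genes marked by red lines. They run between 2.53 for Cldnd1 and 4.84 for Fam76b, to the right of the dotted line at 2 that 77 genes reach.

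Of genes outside the set, the 10 with the largest margins were Mex3c, Atxn7l1, Snx3, Rbms3, Kmt2d, Gabra2, Fnbp4, Erc2, Ddit4 and Hnrnpk, with margins between 2.78 and 3.78. Mex3c, which encodes an RNA-binding ubiquitin ligase, measured 6.85 in HD and 7.14 in WT with CPEB4 and 2.79 to 3.07 on the other 6 arrays. Mex3c was also nearest to the mean profile of the 10 genes after each profile was centred on its mean, with a root mean square difference of 0.11 over the 8 arrays. The next nearest were Gabra2, a GABA-A receptor subunit, and Atxn7l1, each at 0.34, Rbms3, an RNA-binding protein, at 0.35, and Snx3, a sorting nexin, at 0.36. Within the set the same measure ran between 0.18 for Mettl6 and 0.54 for Fam76b, though these genes helped to make the mean they were set against.

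The 10 genes have 25 single-symbol probe sets, of which 15 are not the main ones, in 8 genes. Mettl6 and Armc10 have no other probe set. These other probe sets read the same RNA on the same arrays, so they are a description as well. Of the 15, 5 had a margin at or below 0, beside 89.0% of the 11801 other probe sets of all genes. The remaining 10 (66.7%) had a margin above 0, beside 1301 of those 11801 and 37.5% of the 80 other probe sets of genes outside the set with a main margin of at least 2. A margin above 1 was found for 4 of them, beside 3.07% of all such probe sets.

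Cldnd1 was the gene whose other probe sets followed the main one most. One read 5.38 in HD and 8.39 in WT with CPEB4 and 2.89 to 3.23 on the other arrays, a margin of 2.15. The other read 4.21 in HD and 7.51 in WT with CPEB4 and 2.80 to 3.01 elsewhere, a margin of 1.20. On both, the HD array of CPEB4 was far below the WT array, which the main probe set did not show.

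For Msl2, one other probe set was at 8.39 in HD and 9.50 in WT with CPEB4, against 4.68 and 5.93 with CPEB1, 6.54 and 5.34 with IgG, and 3.22 and 3.38 in input. Its margin was 1.85, but CPEB1 and IgG were above input on it, an order the main probe set did not have. The remaining Msl2 probe set stayed between 2.79 and 3.55 on all 8 arrays. The other probe set of Ivns1abp read 6.35 in HD and 8.13 in WT with CPEB4 and had a margin of 0.70, since the HD input array reached 5.65 on it.

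Siva1 kept a smaller separation on its 3 other probe sets, with margins of 0.31, 0.36 and 1.05. The probe set with a margin of 1.05, also of the x type, read 7.07 in HD and 6.55 in WT with CPEB4 and 4.91 to 5.50 elsewhere. The other probe sets of Acsl3 had margins of 0.97 and 0.40, and one of Ugcg had 0.02. All these are below the margins of the main probe sets.

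Fam76b and Dlc1 had no second probe set with the pattern. The other Fam76b probe sets lay between 2.57 and 3.39 on all arrays, with margins of -0.44 and -0.09. That of Dlc1 lay between 3.25 and 4.05, with a margin of -0.70. The 5 probe sets with a margin at or below 0 are also the 5 below 4.23 on all 8 arrays. The values of Fam76b and Dlc1 thus rest on 1 probe set each, as do those of Mettl6 and Armc10.

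**Figure D3:**
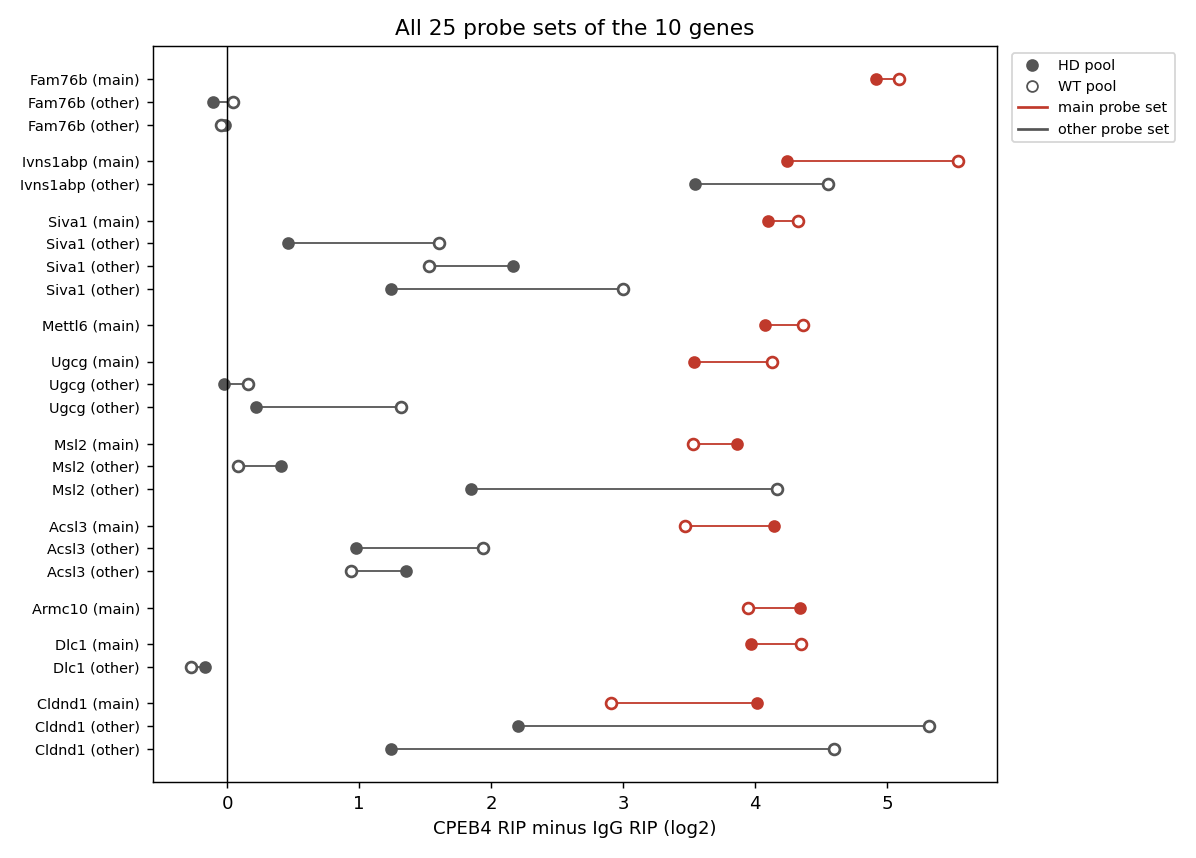
CPEB4 RIP minus IgG RIP (log2, x axis) for all 25 probe sets of the 10 genes (y axis), with the HD pool filled, the WT pool open, main probe sets in red and the others in grey. Main probe sets lie between 2.91 and 5.54, and the other sets of Fam76b and Dlc1 lie near 0.

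The 3 fractions without CPEB4 antibody were also set against each other. The genes were chosen for being low in all 3, and 5 of them passed the low-value filter through the CPEB4 arrays, so their differences here are given as a description with no test. CPEB1 minus IgG lay between -0.90 for Cldnd1 and 0.53 for Dlc1. CPEB1 minus input was -1.07 for Cldnd1 and -0.75 for Acsl3. IgG minus input was -0.94 for Acsl3, which was lower than input on both CPEB1 arrays and both IgG arrays, all 6 of these values being below 4.23. Over the 11345 genes above the low-value filter, limma at an adjusted p under 0.05 called 0.0% for CPEB1 against IgG, 0.0176% for CPEB1 against input and 0.0264% for IgG against input. At an unadjusted p under 0.05 these comparisons had 836, 916 and 1106 genes.

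HD and WT were compared over the 4 fractions in the same limma model. It called 0.0% of all genes and so 0 of the 10, with 595 of 11345 genes at an unadjusted p under 0.05. On its main probe set Msl2 differed by -0.88 ± 0.18 (SE, limma adjusted p = 0.859) and was lower in HD in 4 of 4 fractions. The Msl2 probe set with a margin of 1.85 had an HD minus WT difference of 1.21 with IgG and -0.17 in input, and the mean of the Msl2 probe sets differed by -0.33. Ugcg was also lower in HD in 4 of 4 fractions on its main probe set, and differed by -0.51 over them. Ugcg passed the low-value filter through the CPEB4 arrays and is given with no test. The share of all genes lower in HD in every fraction was not counted.

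Within CPEB4 RIP alone, HD minus WT rests on 1 array each and was not tested. On the main probe sets 1 of 10 genes differed by 1 or more, Ivns1abp at -1.27, beside 16.2% of all genes tested. Ugcg was at -0.87, Msl2 at -0.66 and Cldnd1 at -0.38. Armc10 was at 0.78 and Siva1 at 0.48, while Fam76b at 0.07 and Mettl6 at -0.03 were nearly level.

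In the other fractions HD minus WT passed 1 in size for Dlc1 with CPEB1 (-1.21, beside 21.2% of all genes) and for Cldnd1 with IgG (-1.49, beside 15.4%). In input it did so for 0 of 10, beside 15.7%. With 10 genes, none of these counts is above the share of all genes. There is 1 pool per genotype, so a difference of genotype and a difference of pool cannot be told apart.

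The other probe sets gave a partly different picture within CPEB4 RIP, again from 1 array per genotype and with no test. Probe sets of the same gene are not separate observations. Of the 15, 7 were lower in HD by 1 or more and 0 were higher by as much, beside 10.7% lower and 3.36% higher among the other probe sets of all genes. The 7 belong to Cldnd1 (-3.01 and -3.31), Ivns1abp (-1.78), Siva1 (-1.27 and -1.21), Ugcg (-1.16) and Msl2 (-1.11). All 7 are among the 10 with a margin above 0; of the 1301 such probe sets of all genes, 20.5% were lower and 5.69% higher. The main probe set of Siva1 (0.48) and its remaining one (0.52) went the opposite way to these 2. The main probe sets of Ivns1abp (-1.27), Ugcg (-0.87), Msl2 (-0.66) and Cldnd1 (-0.38) were also lower in HD.

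**Figure D4:**
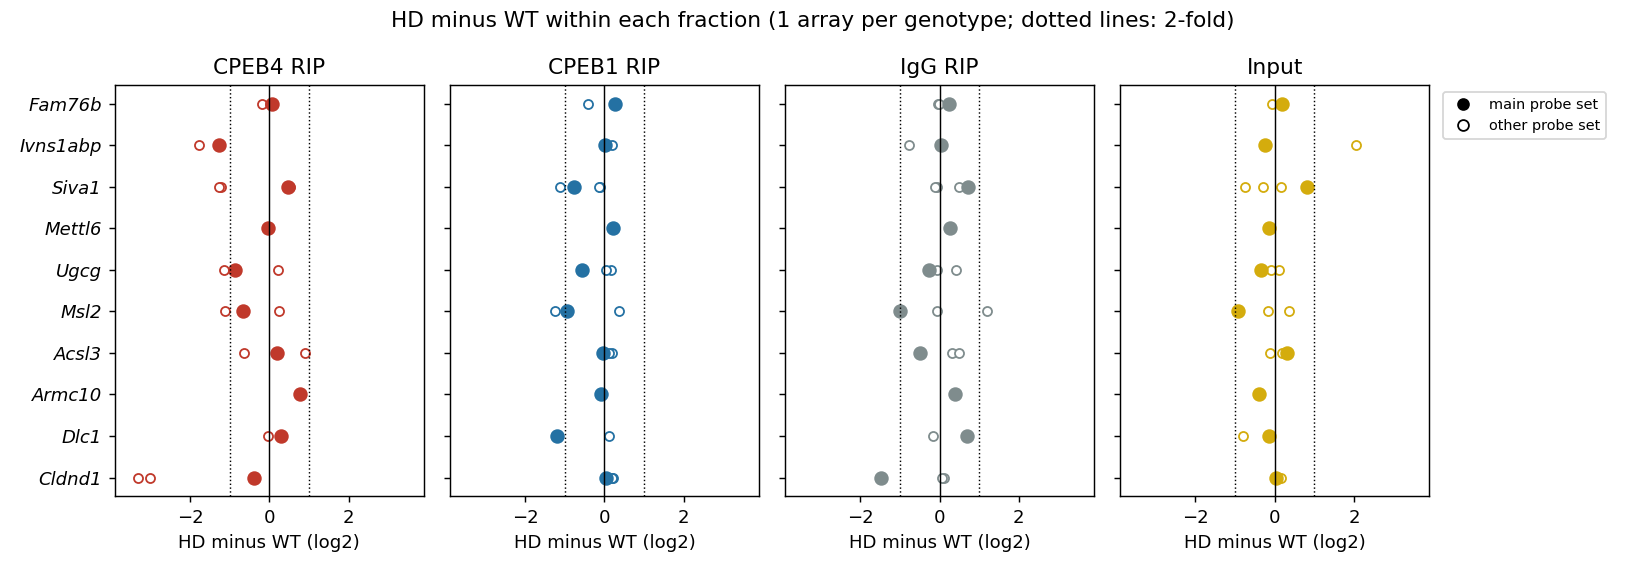
HD minus WT (log2, x axis) of the 10 genes (y axis) in each of the 4 fractions, with main probe sets filled and other probe sets open. With CPEB4 the other probe sets of Cldnd1 lie at -3.01 and -3.31, past the dotted line at -1, and 1 main probe set, Ivns1abp, is past it.

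Relatives and pathway partners of the 10 genes were taken in 9 lists of 164 genes, of which 148 had a named probe set and 116 passed the low-value filter. With CPEB4 3 of the 116 were higher than with IgG and 0 lower (2.59% called, against 2.37% of all genes, 2.33% of them higher). The median difference was 0.46, with 78 of 116 above 0, and -0.06 over all 11345 genes. Over the 6417 genes with a mean above the 75th percentile of probe set means it was 0.34. The part of level in the median of the partners was not tested. Against input 2 were higher (1.72%, against 1.36% of all genes, 1.34% of them higher). Against CPEB1 limma called 0 of 116, with 19 at an unadjusted p under 0.05 (as had 1740 of 11345 genes), and called 0.141% of all genes. The shares of partners called are near those of all genes.

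The 3 partners higher than with IgG were Fam76a, Hnrnpk and Jam3. Fam76a is the paralogue of Fam76b. It measured 7.67 in HD and 7.67 in WT with CPEB4, against 4.51 and 4.88 with CPEB1, 4.02 and 4.87 with IgG, and 5.52 and 5.34 in input. The CPEB4 arrays did not overlap the others, and Fam76a exceeded IgG by 3.22 ± 0.34 (SE, 9.34-fold, limma adjusted p = 0.0367). Against input its limma adjusted p was 0.0540. The other Fam76a probe set read 4.51 in HD and 5.56 in WT with CPEB4 and had a margin of 0.16.

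Hnrnpk encodes a nuclear RNA-binding protein that the human protein of Ivns1abp binds. It was at 8.01 in HD and 8.19 in WT with CPEB4, against 4.53 and 3.75 with CPEB1, 4.18 and 4.03 with IgG, and 5.23 and 3.92 in input. The excess over IgG was 3.99 ± 0.42 (SE, 15.9-fold, limma adjusted p = 0.0367), and that over input 3.53 (limma adjusted p = 0.0411). Its other probe set had a margin of 0.08.

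Jam3 encodes a junctional adhesion molecule and came with the claudin family. It was at 7.58 in HD and 7.30 in WT with CPEB4, against 5.22 and 4.79 with CPEB1, 5.17 and 4.77 with IgG, and 5.37 and 4.89 in input. It exceeded IgG by 2.47 ± 0.24 (SE, 5.52-fold, limma adjusted p = 0.0351). The other Jam3 probe set went the opposite way, at 4.63 in HD and 4.07 in WT with CPEB4 and 4.82 to 5.23 elsewhere. Without any 1 CPEB4, IgG or input array limma called 0 of all 11345 genes against IgG, with 1404 to 2923 at an unadjusted p under 0.05, so the loss of these 3 calls is not particular to them. Over those fits the excess over IgG was 2.39 to 2.55 for Jam3, 2.83 to 3.62 for Fam76a and 3.53 to 4.46 for Hnrnpk. Leaving out a CPEB1 or input array cannot change the excess over IgG, since both CPEB4 and both IgG arrays remain. It was then 3.22 for Fam76a and 3.99 for Hnrnpk by construction, which says nothing of their stability.

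In the other 7 lists limma called 0 genes for CPEB4 against IgG, with 20 genes at an unadjusted p under 0.05, as had 2598 of all 11345 genes. Among the 23 tested sphingolipid enzymes, the partners of Ugcg, B4galt6, which adds galactose to the product of Ugcg, exceeded IgG by 3.19 ± 0.57 (SE, limma adjusted p = 0.0622). B4galt6 was at 10.34 in HD and 10.23 in WT with CPEB4, against 6.74 and 7.44 with IgG, and had a margin of 2.16. The other B4galt6 probe sets had margins of 0.30, 1.38 and 2.18. Cers1, a ceramide synthase, exceeded IgG by 3.15 ± 0.59 (SE, limma adjusted p = 0.0675). Its margin was 0.60, as Cers1 reached 9.64 on the WT array of CPEB1.

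Of the 9 tested genes of the MSL and NSL complexes, Msl1, the scaffold that Msl2 binds, exceeded IgG by 3.32 ± 0.57 (SE, limma adjusted p = 0.0568). Msl1 was also high on a CPEB1 array: it measured 6.34 in HD and 9.18 in WT with CPEB1, against 4.64 and 5.17 with IgG. Wdr5, a histone-binding subunit of the NSL complex, exceeded IgG by 3.18 ± 0.72 (SE, limma adjusted p = 0.0974). The margin was -1.56 for Msl1 and 0.56 for Wdr5. Among 12 tested apoptosis regulators Bcl2, which blocks mitochondrial apoptosis, exceeded IgG by 3.68 ± 0.72 (SE, limma adjusted p = 0.0759). Mdm2, the ubiquitin ligase of p53, exceeded it by 2.36 ± 0.98 (SE, limma adjusted p = 0.231). Bcl2 was also high on a CPEB1 array, at 8.76 in WT, and had a margin of 0.21, while that of Mdm2 was 1.88.

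The 12 tested genes of tRNA methylation had a median difference of 0.60 from IgG. Their largest differences were 1.83 ± 1.31 for Trmt112, the activator of several methyltransferases, and 1.55 ± 0.31 for Sars, the seryl-tRNA synthetase, whose human protein binds that of Mettl6 (SE, limma adjusted p = 0.400 and 0.0787). Trmt112 had a margin of -0.27, as it reached 9.62 on the HD input array. Sars was at 9.59 in HD and 9.15 in WT with CPEB4, against 10.38 and 10.66 with CPEB1, which was the higher of the 2. Its difference from IgG was 0.48 with cyclic loess and 0.46 with quantile normalization. The 14 tested genes of fatty acid activation and lipid droplets had a median of -0.00. Fabp5, a fatty acid binding protein, was at 1.24 ± 0.84 and Acsl6, a relative of Acsl3, at 1.04 ± 0.50 (SE, limma adjusted p = 0.384 and 0.272). Their margins were -1.55 and -1.59. Acsl4, named after its values were seen, did not pass the low-value filter and had a margin of 1.22, with 3.24 to 3.59 on the 6 arrays outside CPEB4.

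The list of Armc10 relatives and mitochondrial transport genes had a median of 1.21 over 9 tested genes. Of these, 1 was at an unadjusted limma p under 0.05, as were 2598 of all 11345 genes. The relatives Armcx6 and Gprasp1 were at -0.47 and -1.34. Kif5b, a kinesin heavy chain, exceeded IgG by 2.88 ± 0.58 (SE, limma adjusted p = 0.0786) and Mfn2, a mitofusin, by 2.87 ± 1.23 (SE, limma adjusted p = 0.239). Their margins were 0.91 and -1.45, as Mfn2 reached 7.47 on the WT array of CPEB1, above both CPEB4 arrays. The claudin list had a median of -0.27 over 10 genes, although it holds Jam3.

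**Figure D5:**
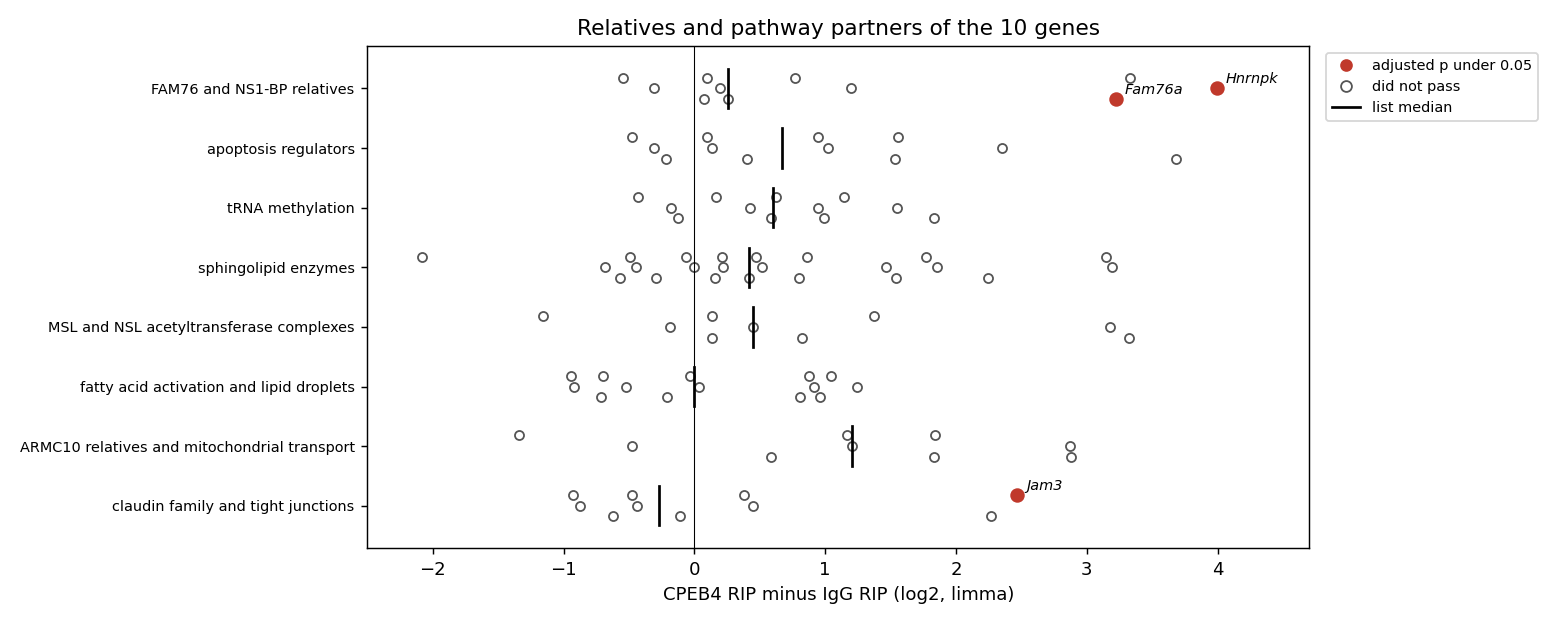
CPEB4 RIP minus IgG RIP (log2, x axis) of the tested partners in 8 of the 9 lists (y axis), with 1 circle per gene, red where the limma adjusted p is under 0.05, and a bar at each list's median. Fam76a, Hnrnpk and Jam3 are the 3 red points, and the list medians lie between -0.27 and 1.21.

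Cell type markers were read on the same arrays. The 10 measured markers of medium spiny neurons averaged 8.21 in HD and 9.01 in WT with CPEB4, against 7.53 and 9.02 with CPEB1, 7.30 and 8.67 with IgG, and 7.97 and 7.79 in input. Of these 10, 0 had a margin above 0, beside 1505 of all 17097 genes (8.8%). The 7 measured oligodendrocyte markers averaged 8.32 in HD and 8.22 in WT with CPEB4, against 7.33 and 7.54 with CPEB1, 6.34 and 7.93 with IgG, and 7.73 and 7.53 in input. Of these 7, 2 had a margin above 0 and 0 had one of 2. The part of oligodendrocyte RNA in the levels of the 10 genes was not tested. In the lists for astrocytes, microglia, endothelial cells, cortical excitatory neurons, choroid plexus and ependyma, and blood, 0 markers had a margin above 0.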

How the data were processed

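The authors deposited log2 values, 1 per probe set and array, for which the submitters' processing notes name RMA. They give neither its version nor whether the 8 arrays were normalized together. The values were used unscaled. Of 45101 probe sets, 28898 had 1 gene symbol in the platform annotation, 551 several and 15652 none, and 28689 were matched to RefSeq genes (GRCm38.p6). Each of 17097 genes was read from whichever of its probe sets with 1 symbol averaged highest; the 11345 genes with a mean above 4.23 were tested. Precision is limited by the number of arrays.

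The tests used limma 3.58.1 (R 4.3.3; lmFit, then eBayes, two-sided, Benjamini-Hochberg over the 11345 genes, adjusted p under 0.05), with fraction and genotype pool as terms over all 8 arrays. The residual degrees of freedom were 3, and those of the prior 2.29. The genotype pools stand in for replicates, so the p-values measure the spread between these arrays. The script was tested on simulated data. The members and gene lists were chosen with earlier results of these data known. Named are the 10 genes, their partners past the test or else the 2 with the largest difference of each list, and the 10 and 5 other genes most like them. Alternatives covered normalization, gene summary, filter, moderation, the genotype block, the arrays fitted and each array left out. Coordinates and sequences were not used here. The genes of 1 of the 9 partner lists, which is in the counts over all lists, are not reported here.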

Additional observations from a re-analysis of the deposited data

How the results depend on the processing

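Partners called against IgG (3, beside 269 of all 11345 genes) became 0 with quantile normalization, beside 9 of all genes. They became 5 with the mean of probe sets, beside 277 of 10100 genes, and 6 with no genotype block, beside 348. With only the 4 arrays compared they became 0, as did the calls over all genes. With 1 CPEB4, IgG or input array left out, limma called 0 of all 11345 genes against IgG, with 1404 to 2923 at an unadjusted p under 0.05. Partners called against input (2, beside 154 of all genes) became 5 with cyclic loess (305 of all genes) and 0 with quantile normalization (2). They became 0 with the 75th percentile filter (9 of 6417), 4 with trended robust eBayes (200) and 4 with no genotype block (239). With only the 4 arrays compared they were 0, as over all genes. With any 1 array left out, neither these calls nor any other call over all genes held. Partners called against CPEB1 (0, beside 16 of all genes) became 3 with cyclic loess (61 of all genes) and 1 with median centring (26). They became 1 with no low-value filter (21 of 17097), 3 with trended robust eBayes (75) and 3 with no genotype block (81). Fabp5 against IgG turned to -0.06 (limma adjusted p = 0.964) without the HD array of CPEB4; its adjusted p with 1 array left out was 0.298 to 0.964. The median CPEB4 minus IgG difference of all genes was -0.06 as deposited, -0.24 with quantile normalization, 0.10 with median centring and 0.03 with cyclic loess. The margin restates the choice of the 10 genes. At least 2 was reached by 5 of them with the mean of probe sets, and 6 reached a margin of 3. The median margin (3.10) was 2.58 with quantile normalization and 1.89 with the mean of probe sets; it was 3.10 to 3.48 with 1 array left out, which can only keep or raise it. Of the 10 genes 7 passed the low-value filter with the mean of probe sets, and 5 passed the 75th percentile filter. Calls of these genes among the fractions without CPEB4 are not given, because the genes were chosen for being low in all of them. In the fits with no array left out, the comparisons among those fractions called at most 9 of all genes tested. HD against WT called 0 of all genes in the fits with no array left out. Counts of HD minus WT past 1 were, with CPEB4 (1), 2 with cyclic loess, 0 with quantile normalization and 4 at a difference of 0.58; with CPEB1 (1), 2 with median centring and 3 at 0.58; with IgG (1), 2 with quantile normalization, 2 with median centring and 4 at 0.58; in input (0), 1 with quantile normalization and 2 at 0.58. No cause of these shifts was tested. The genotype pool is the block of the model, and the fits with no genotype block are given above. Levels near 4 lie close to the array background, and a fold against them is only rough.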
